A study of Drosophila melanogaster with 24 samples.

Results

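This section describes 695 regions of the *Drosophila* wing genome, taken from 8477 peaks bound by E93 at 24 h after puparium formation (APF). Each had a FAIRE-seq peak in wild-type wings at 24 h, none in wild-type wings of the wandering larva at the last larval instar (L3) and none in E93 mutant wings at 24 h. They are therefore sites of E93 binding that were listed as open at 24 h but not at L3 in wild type, and not listed as open at 24 h in the mutant. The regions were chosen by measured values, the peak calls of these 4 lists, so their presence at 24 h and their absence in the mutant at 24 h are not findings.

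E93 (Eip93F) is a helix-turn-helix transcription factor of the Pipsqueak family and is induced by ecdysone, the steroid hormone that times insect moults and metamorphosis. In the wing it acts in the pupa, after the disc has everted and while cells leave the cell cycle and begin to differentiate. FAIRE-seq recovers DNA that is not crosslinked to protein by formaldehyde, so that sequenced fragments pile up at accessible regulatory elements such as enhancers and promoters. ChIP-seq recovers the DNA that is crosslinked to a chosen protein.

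Wild-type wings for FAIRE-seq came from w1118/y,w, hs-FLP females, with 3 replicates at each of L3, 24 h and 44 h. The mutant wings carried the allele E93-4 over the deficiency Df(3R)93FX2 and were taken from females at the same stages (2 replicates each). At least 40 wings were dissected per FAIRE-seq sample. E93 binding was measured at 24 h in 2 replicates of at least 700 wings of both sexes, with an antibody to GFP, in flies with 1 tagged copy of E93 (E93-GFSTF, from Mi{MIC}Eip93F) over an untagged chromosome. Genomic DNA of adult Oregon R females (1 sample) was the control. RNA-seq data were not analysed here.

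Replicates had been pooled by the authors before peaks were called, which gave 1 deposited list per condition. The spread between replicates is therefore not known, no test across samples could be made, and the intervals below are exact (Clopper-Pearson) 95% binomial intervals that cover counting error only. The FAIRE-seq lists held between 22786 and 39525 peaks. Depth, estimated from the lists, came to 9.57 M reads for larval wild-type wings, 17.5 M for 24 h and 14.5 M for 44 h. The mutant lists came to 5.44 M, 4.68 M and 2.79 M in the same order of stages, and the ChIP-seq list to 20.6 M. The mutant list at 24 h, in which the 695 regions were absent, thus rests on far fewer reads than the wild-type list.

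Peak names in the mutant L3 list refer to the time of puparium formation, whereas the labels give L3. The mutant genotype could be checked on 3R, the arm of the deficiency. Over peaks shared with wild type at L3, the running median of the mutant to wild-type pileup ratio reached its lowest value there, -0.76 on the log2 scale, while no other large arm went below -0.32. The low stretch ran from 17608983 to 18024845 on 3R, and within it the median ratio was 0.631 of that of the whole list at L3, 0.757 at 24 h and 0.678 at 44 h. In the later lists, running medians as low as this were also found on other arms, down to -0.97 on 3L at 44 h. The stretch held 5 of the 695 regions, and the shares given below moved within their intervals without them. Coordinates are those of the peak lists, whose build is dm3 by the submitters' processing notes. No genome or gene annotation of that build was used here, so no region was assigned to a gene and no sequence is shown.

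The rule was applied in 3 steps. Of the 8477 E93 peaks, 8117 shared at least 1 bp with an open region of wild-type wings at 24 h. Of these, 1409 overlapped no L3 peak and are called pupal E93 peaks here. Of the pupal E93 peaks, 695 had no mutant peak at 24 h, which is 49.3% (46.7% to 52.0%), where 11.6% of all E93 peaks with a wild-type 24 h peak had none and 13.8% of all E93 peaks had none. Counted as FAIRE-seq peaks, 75% of the 8678 wild-type 24 h peaks with no L3 peak, bound by E93 or not, had none. The remaining 714 pupal E93 peaks, open in the mutant at 24 h, and the 6708 E93 peaks open in wild type at both L3 and 24 h served as comparison groups. Where ChIP-seq and 24 h peaks had to reach a −log10 q of 10, 76 regions were left, or 27.1% of 280 pupal E93 peaks. With the same threshold on all lists, 207 regions fitted the rule, or 38.2% of 542. Weaker L3 and mutant peaks were dropped there too, so the 207 are not a subset of the 695.

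The 695 regions were mostly modest peaks, both in E93 binding and in accessibility. Their ChIP-seq pileup, the number of extended and scaled reads over the summit, ran from 23.7 to 86.8 with a median of 34.0. That median stood at percentile 34.6 of all E93 peaks (100 being the highest pileup), and 484 of the 695 lay in the lower 50% of the list. Pupal E93 peaks open in the mutant had a median percentile of 47.0, and E93 peaks open at L3 and 24 h one of 54.98. Fold enrichment of the 695 over the local background had a median of 2.61 and reached at most 6.63. These values describe peaks within the list that chose them and carry no test.

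Accessibility at 24 h was nearer the middle of its list. The wild-type 24 h pileup of the 695 regions ran from 23.7 to 123.9, with quartiles of 43.4 and 76.1 and a median of 57.3. The median percentile was 56.6 of all 29731 wild-type 24 h peaks, against 71.2 for pupal E93 peaks open in the mutant and 82.6 for E93 peaks open at L3 and 24 h. Few regions were strong in both measures, with 15 in the top 25% of both lists and 3 in the top 10% of both. Across the 695 regions ChIP-seq and FAIRE-seq pileup were only weakly related, with Spearman's rho of 0.20. Both are measured over the same DNA, and rho is given as a description.

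**Figure D1:**
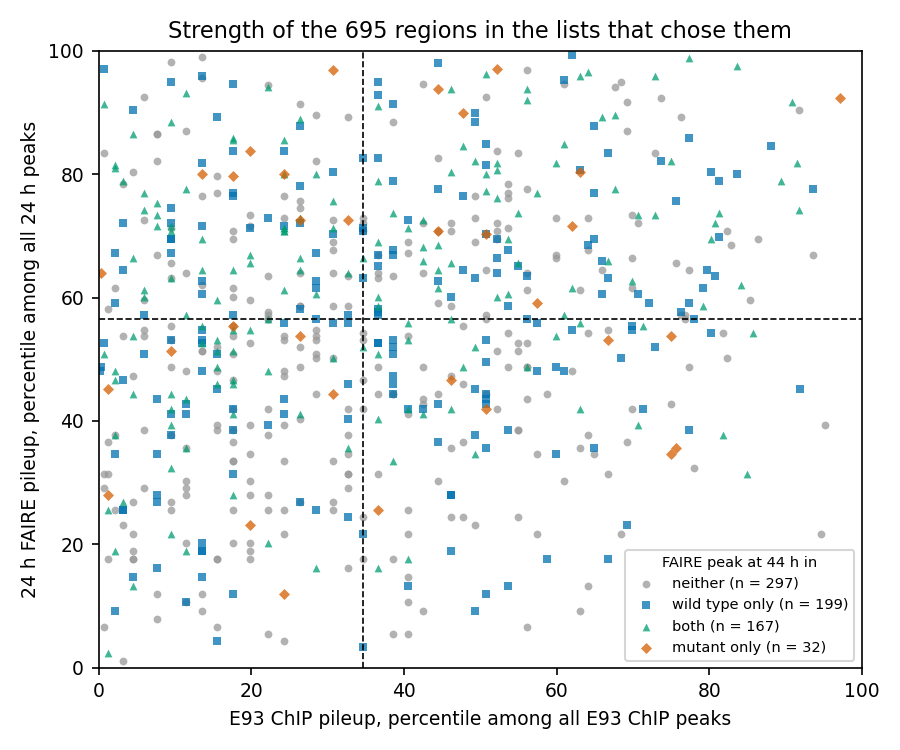
Each point is 1 of the 695 regions, placed by the percentile of its ChIP-seq pileup among all E93 peaks (x axis) and of its wild-type 24 h FAIRE-seq pileup among all 24 h peaks (y axis), and marked by the genotypes that had a peak there at 44 h. Dashed lines show the medians, 34.6 and 56.6, and the 4 fates at 44 h are spread over the whole field.

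The regions were also short. The E93 peaks had a median length of 211 bp (lowest 125 bp, highest 799 bp), against 256 bp for pupal E93 peaks open in the mutant and 305 bp for E93 peaks open at L3 and 24 h. The overlapped 24 h FAIRE-seq peaks had a median length of 342 bp, against 473 and 566 bp in the comparison groups. A longer peak overlaps other lists more easily, so length and the absence of an overlap are not independent. The ChIP-seq summit lay inside the FAIRE-seq peak in 641 of 695 regions (92.2%), near the 92.4% of all E93 peaks and below the 95.5% and 97.0% of the comparison groups. The rule requires an overlap, so most summits had to fall there. The median distance between the ChIP-seq and FAIRE-seq summits was 68 bp, against 92 bp over all E93 peaks with a 24 h peak.

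The 695 E93 peaks met 693 distinct 24 h FAIRE-seq peaks, of which 10 held 2 of the regions, while 8 of the regions touched 2 FAIRE-seq peaks. In 126 regions the strongest 24 h peak did overlap an L3 or mutant 24 h peak elsewhere along its length, outside the E93 peak. Those FAIRE-seq peaks were long, with a median of 730 bp against 306 bp for the other 569 regions. Other open DNA was often near. The nearest L3 peak was at a median of 550 bp and the nearest mutant 24 h peak at a median of 510 bp, with 329 and 341 regions within 500 bp of one. Of all 1409 pupal E93 peaks, 729 had no L3 peak within 500 bp. A near L3 peak was thus about as frequent over all pupal E93 peaks and is not particular to the 695. Requiring a gap of over 500 bp to both left 297 regions, or 40.7% of those 729 pupal E93 peaks.

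At the edge of the rule, values did not separate sharply. The region from 18132578 to 18132717 on 3L met its 24 h peak by 1 bp, with a ChIP-seq pileup of 32.1 and a 24 h pileup of 100.2. The region from 19065649 to 19065788 on 3L lay 4 bp from an L3 peak, with a ChIP-seq pileup of 25.2 and a 24 h pileup of 38.2. The region from 3576019 to 3576286 on 2L lay 2 bp from a mutant 24 h peak, with a ChIP-seq pileup of 35.0 and a 24 h pileup of 65.4. Just outside, the E93 peak from 12021577 to 12021751 on 3L shared 3 bp with an L3 peak. Its ChIP-seq pileup of 35.5 and 24 h pileup of 66.6 fell inside the range of the 695. The E93 peak from 19834082 to 19834367 on 3R shared 4 bp with a mutant 24 h peak, with pileups of 35.5 and 81.1.

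The regions were found on all large arms. There were 117 on 2L, 134 on 2R, 173 on 3L, 196 on 3R and 75 on X, or between 3.34 per Mb on X and 7.05 per Mb on 3L up to the furthest peak of the arm. The share on X was 10.8% (8.58% to 13.3%), against 12.7% of all E93 peaks, 12.04% (9.75% to 14.7%) of pupal E93 peaks open in the mutant and 17.7% of all wild-type 24 h FAIRE-seq peaks. The ChIP-seq used wings of both sexes, and male cells have 1 X, whereas the FAIRE-seq used females. The part of this in the share was not tested. Chromosome 4 held 0 of the 695, which at 3 counts allows a share of up to 0.432% (exact upper limit 0.529%), and its 9 E93 peaks were all open at L3 and 24 h.

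Whether a peak of these heights could have been listed in the shallower mutant data was examined first. The wild-type 24 h pileup of each region was multiplied by the ratio of the background levels of the lists, 4.87 in the mutant to 10.56 in wild type. That pileup is the one at the summit of the strongest overlapped FAIRE-seq peak, up to 1400 bp from the ChIP-seq summit. The result is the pileup to be expected at that summit in the mutant under 2 assumptions. The enrichment is the same, and pileup grows in proportion to the background level at all strengths. The second was not tested, so the expected pileup may be too low or too high. It can also exceed the pileup to be expected at the E93 peak itself. In 109 regions the FAIRE-seq peak used did overlap a mutant 24 h peak elsewhere along its length. Expected values had a median of 26.4 reads with quartiles of 20.0 and 35.1, and the lowest pileup in the mutant list was 12. The expected pileup reached 12 in 692 of 695 regions (99.6%), 1.5 times that value in 574 (82.6%) and 2 times that value in 420 (60.4%). The lowest pileup is 0.454 of the median expected pileup, and 15 reads are 0.567 of it. A pileup of 15 is the 5th percentile among mutant peaks whose local background was at the background level of the list. Neither value is a bound for a single region, since the pileup needed is higher where the local background is higher. Of the mutant 24 h peaks, 32.5% had a local background at the background level of the list.

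The same scale can be read in regions that were listed in the mutant. Among the 714 pupal E93 peaks open in the mutant, the measured mutant pileup had a median of 1.04 times the expected one, and 5.04% were under 0.5. Among E93 peaks open at L3 and 24 h with a mutant peak, the median was 1.79 times and 1.15% were under 0.5. These groups hold only listed peaks, so low ratios are cut off, and the scale is approximate. Median wild-type 24 h pileup was 75.3 in the first group and 92.1 over all E93 peaks open at L3 and 24 h. The part of strength and depth in the ratios was not tested.

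**Figure D2:**
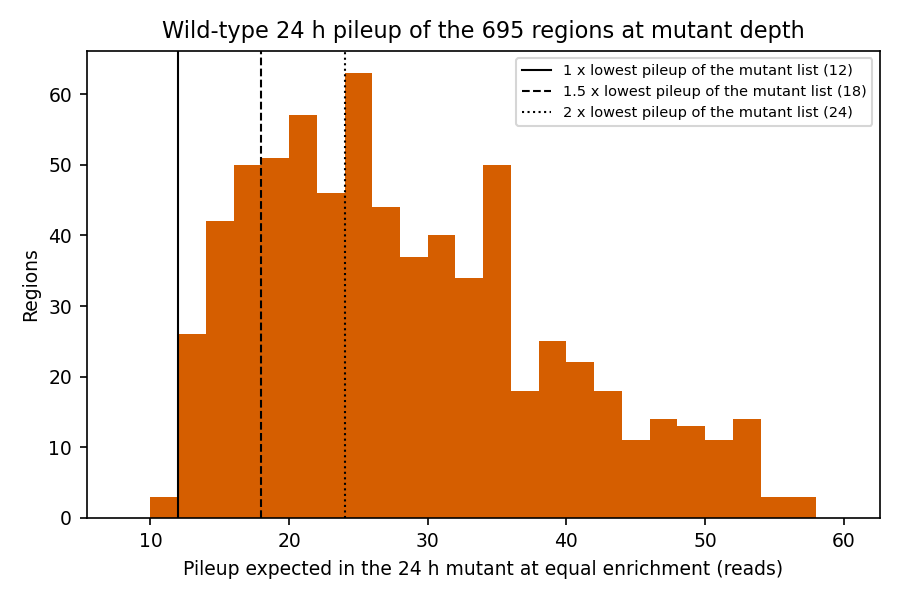
The histogram counts the 695 regions (y axis) by the pileup in reads expected in the 24 h mutant if enrichment equalled wild type (x axis). The expected pileup is that at the summit of the overlapped FAIRE-seq peak, scaled in proportion to the background levels. Vertical lines mark 12, 18 and 24 reads, which are 1, 1.5 and 2 times the lowest pileup of the mutant list, and 692 regions lie at or above the first line.

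Among all wild-type 24 h FAIRE-seq peaks, the share with no mutant peak differed by strength, by the larval state and by E93 binding. Here FAIRE-seq peaks are counted, each called pupal if it overlapped no L3 peak along its whole length. Of pupal FAIRE-seq peaks with an E93 peak, 612 of 1214 had no mutant 24 h peak, or 50.4% (47.6% to 53.3%), where 34.6% of all 24 h peaks had none. The share fell with pileup, from 67.2% (60.8% to 73.2%) under a pileup of 40 to 62.1% between 40 and 60, 48.9% between 60 and 80 and 23.5% (18.8% to 28.9%) over 80. At peaks shared with L3 that had an E93 peak, the shares in the same classes were 13.2%, 9.49%, 4.64% and 0.729%.

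Pupal peaks without E93 were missing in the mutant more often than those with E93. Their share was 79.0% (78.0% to 79.9%) of 7464. By pileup class it was 84.4%, 77.5%, 67.7% and 41.2% (34.8% to 47.9%), above that of E93-bound pupal peaks in each class. In these lists a missing mutant peak was not particular to E93-bound regions, and was less frequent among them. Peak length was not held equal between bound and unbound peaks. Stronger binding went with a lower share as well. By quartile of ChIP-seq pileup, from weakest to strongest, 61.2%, 54.5%, 47.5% and 33.2% of the pupal E93 peaks had no mutant 24 h peak. Neither 24 h pileup nor the length of the E93 peak was held equal across the quartiles. These shares use the lists of the rule, so they are descriptions with no test.

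**Figure D3:**
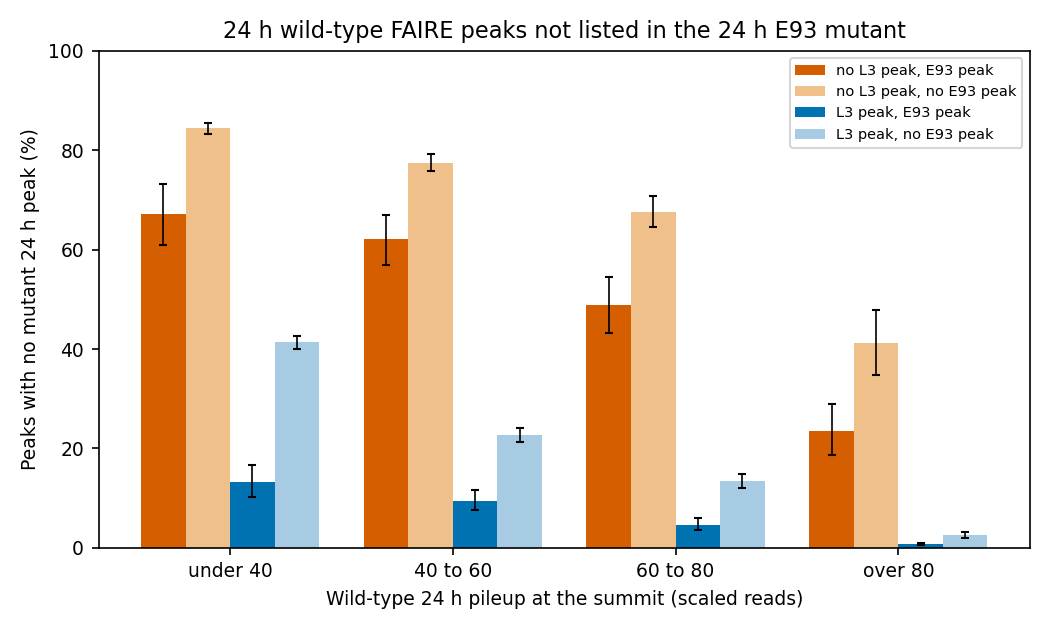
Bars give the percent of wild-type 24 h FAIRE-seq peaks with no mutant 24 h peak (y axis) by wild-type 24 h pileup class in scaled reads (x axis), for peaks with or without an L3 peak and with or without an E93 peak. Error bars are exact 95% intervals. In each class the pupal peaks stand above those shared with L3, and the peaks without E93 above those with E93.

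The 44 h lists took no part in choosing the regions and show what became of them. In wild type, 366 of the 695 had a peak at 44 h, or 52.7% (48.9% to 56.4%), where 75.9% of all E93 peaks had one. The share was 64.8% (61.2% to 68.4%) of pupal E93 peaks open in the mutant and 82.1% (81.2% to 83.0%) of E93 peaks open at L3 and 24 h. It grew with strength at 24 h, from 36.3% (28.2% to 45.0%) under a pileup of 40 to 62.9% (54.3% to 70.9%) over 80. In the same 2 classes the pupal E93 peaks open in the mutant reached 50.0% (38.1% to 61.9%) and 68.8% (63.4% to 73.8%), intervals that overlap with those of the 695. Among the 366 that stayed, the 44 h pileup had a median percentile of 55.7 in its list.

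In the mutant at 44 h, 199 of the 695 regions had a peak, or 28.6% (25.3% to 32.2%), where 78.8% of all E93 peaks had one. The share was 67.9% (64.4% to 71.3%) of pupal E93 peaks open in the mutant at 24 h and 88.0% (87.2% to 88.8%) of E93 peaks open at L3 and 24 h. By quartile of the pileup expected in the 24 h mutant, from weakest to strongest, the share of the 695 was 16.6%, 27.5%, 30.4% and 40.2% (32.9% to 47.9%). Between the same limits, pupal E93 peaks open in the mutant at 24 h stood at 60% (60 of 100), 58.7%, 56.4% and 78.0% (73.3% to 82.2%). The intervals were apart in every quartile. The mutant lists at 24 h and 44 h come from the same genotype and from different samples. No test across samples was possible.

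Both genotypes together gave 4 fates. No peak at 44 h in either genotype was the most frequent, in 297 regions or 42.7% (39.0% to 46.5%). A peak in wild type only was found in 199 (28.6%), in both genotypes in 167 (24.0%) and in the mutant only in 32 (4.60%). The 167 with a peak in both were thus listed as open in the mutant at 44 h although not at 24 h. Among pupal E93 peaks open in the mutant at 24 h, the corresponding shares were 24.2% in neither, 7.84% in wild type only, 57.0% in both and 10.9% in the mutant only. ChIP-seq strength was alike across the fates, with median percentiles between 32.7 and 36.6. Accessibility at 24 h was not, with median percentiles of 64.6 for regions open in both at 44 h, 61.6 for the mutant only, 57.2 for wild type only and 52.0 for neither.

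**Figure D4:**
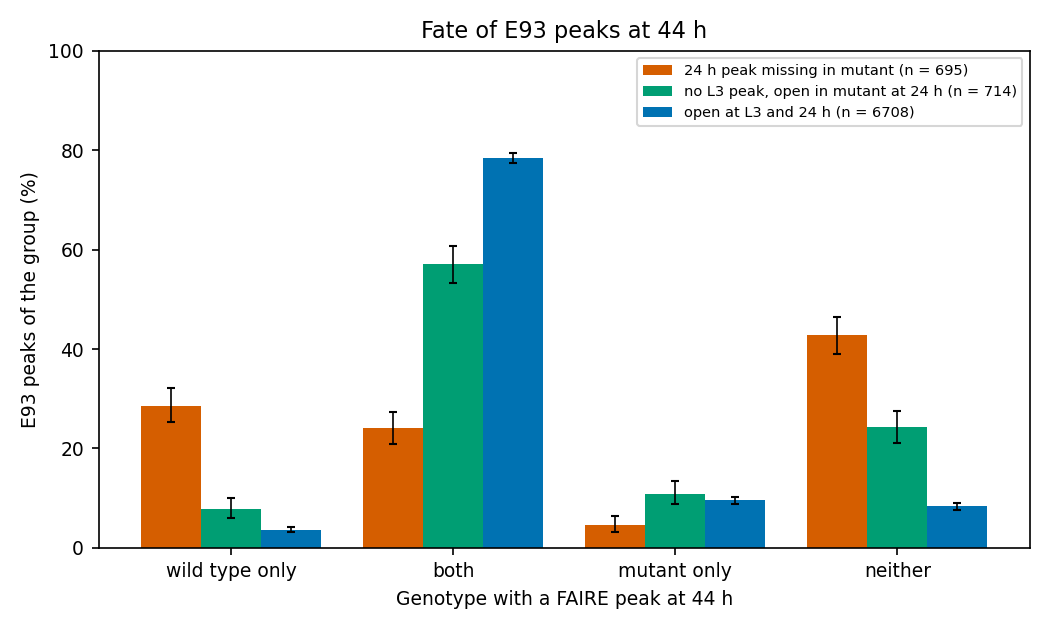
Bars give the percent of E93 peaks (y axis) with a FAIRE-seq peak at 44 h in wild type only, in both genotypes, in the mutant only or in neither (x axis), for the 695 regions, the 714 pupal E93 peaks open in the mutant at 24 h and the 6708 E93 peaks open at L3 and 24 h. Error bars are exact 95% intervals. Neither is the highest bar of the 695 regions (42.7%), and both is the highest bar of the other groups.

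The comparison least dependent on persistence is that among regions still open in wild type at 44 h. Of the 366 such regions, 199 had no mutant 44 h peak, or 54.4% (49.1% to 59.6%), where 8.34% of all E93 peaks with a wild-type 44 h peak had none. It was 12.1% (9.27% to 15.4%) for pupal E93 peaks open in the mutant at 24 h and 4.43% (3.90% to 5.01%) for E93 peaks open at L3 and 24 h. The share of the 695 fell with the wild-type 44 h pileup, from 70.3% (59.8% to 79.5%) of 91 under 40 and 77.2% (67.2% to 85.3%) of 92 between 40 and 60 to 28.2% (20.5% to 37.0%) of 124 over 80. In these classes the pupal E93 peaks open in the mutant stood at 20.2%, 21.4% and 3.98% (1.73% to 7.69%). Between 60 and 80 the shares were 49.2% and 12.5%. The intervals were apart in each of the 4 classes. The mutant 44 h list was the shallowest, with a background level of 2.91 against 10.56 in wild type and a lowest pileup of 8. Whether a wild-type 44 h peak of equal enrichment could be listed at that depth was not worked out. In the class under 40 in particular, absence from the mutant list may reflect depth, which was not tested.

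**Figure D5:**
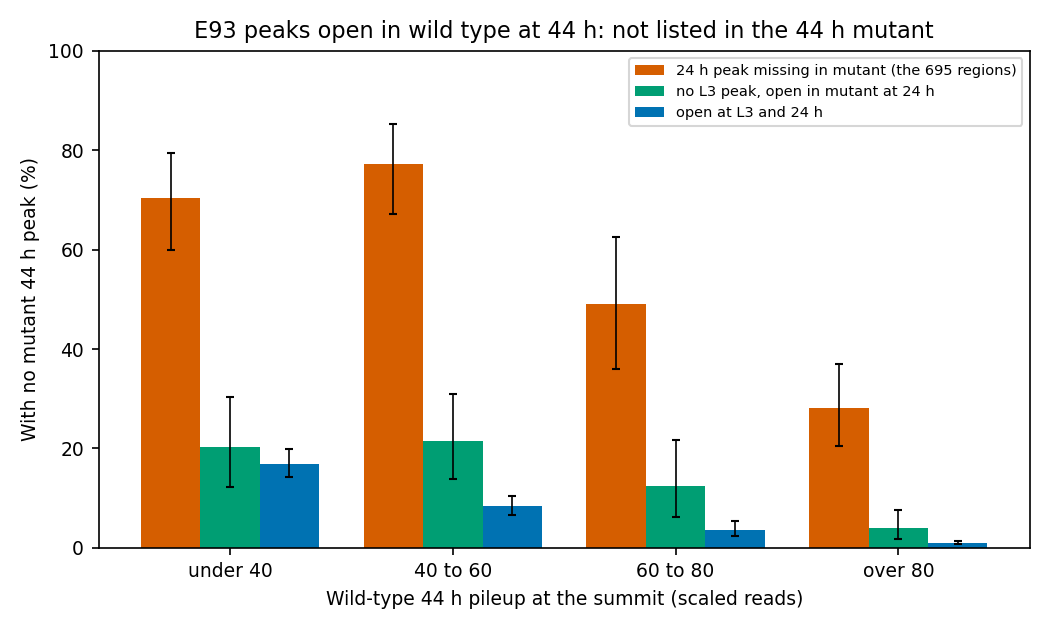
Bars give the percent of E93 peaks open in wild type at 44 h that had no mutant 44 h peak (y axis) by wild-type 44 h pileup class in scaled reads (x axis), for the 695 regions and the comparison groups. Error bars are exact 95% intervals. The bars of the 695 regions lie between 28.2% and 77.2%, above both other groups in each class.

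Where the 167 regions did have a peak in both genotypes at 44 h, the mutant pileup had a median of 1.11 times that expected from wild type at 44 h. This was 1.69 times in pupal E93 peaks open in the mutant at 24 h and 2.21 times in E93 peaks open at L3 and 24 h. All 3 medians cover only peaks listed in both genotypes at 44 h, so low ratios are cut off here too. Wild-type strength differed between the groups as well. Over all regions with a wild-type 44 h peak, median wild-type 44 h pileups were 60.3, 70.4 and 94.85 in the same order. The part of strength and depth in these ratios was not tested. The mutant 44 h pileup of the 199 regions listed there ran from 10 to 99 reads, with a median of 21 and a median list percentile of 42.2. FAIRE-seq peaks without E93 give a further reference. Of all wild-type 24 h FAIRE-seq peaks, 69.1% had a wild-type and 59% a mutant peak at 44 h. Of pupal 24 h peaks missing in the mutant at 24 h, 28.1% of 612 with E93 had a mutant peak at 44 h, against 15.6% of 5893 without, where missing peaks were 75% of pupal 24 h peaks. The peaks without E93 were weaker at 24 h. From under 40 to over 80 in 24 h pileup, the shares were 19.6%, 23.6%, 36.3% and 44.1% with E93. Without E93 they were 13.6%, 17.8%, 18.4% and 28.7%, and the intervals were apart only between 60 and 80. Of pupal 24 h FAIRE-seq peaks missing in the mutant at 24 h and open in wild type at 44 h, 73.1% (71.5% to 74.7%) of 2963 without E93 had no mutant 44 h peak, against 54.8% (49.3% to 60.3%) of 330 with E93.

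In the mutant L3 list, 40 of the 695 regions had a peak, or 5.76% (4.14% to 7.76%), where 76.9% of all E93 peaks had one. The share was 14.4% (11.9% to 17.2%) of pupal E93 peaks open in the mutant at 24 h. Both groups lack a wild-type L3 peak by rule, so low shares follow from it, and the stage of that list is in doubt. The 40 peaks were modest, with a median pileup percentile of 33.9 in their list. The share depended on how peaks were matched, with 9.27% when summits at most 250 bp apart were counted and 0.483% where peaks of all lists had to reach a −log10 q of 10.

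The regions that ranked best in both lists of the rule had all kinds of fates. The highest ChIP-seq pileup of the 695, 86.8, belonged to the region from 16633006 to 16633482 on 3L, at rank 240 of 8477. Its 24 h pileup was 107.7 (percentile 92.3). At 44 h it had no wild-type peak and a mutant peak of 27 reads. It lay 979 bp from another of the 695 regions 1255 bp from the nearest L3 peak and 1246 bp from the nearest mutant 24 h peak.

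The region from 2544695 to 2545226 on 3L, with a ChIP-seq pileup of 68.5 (percentile 90.9) and a 24 h pileup of 106.5 (percentile 91.7), was still listed later. At 44 h its wild-type pileup was 113.0 (percentile 88.0), and a mutant peak of 20 reads was listed. The region from 14598119 to 14598477 on 2L was listed at 24 h only, with a ChIP-seq pileup of 70.5 and a 24 h pileup of 104.2, and had no peak at 44 h in either genotype. It lay 113 bp from a mutant 24 h peak. The region from 14234446 to 14235002 on 3L had a ChIP-seq pileup of 64.6 and a 24 h pileup of 94.96. It kept a low wild-type peak at 44 h, with a pileup of 30.7 (percentile 13.7), and had no mutant peak there, although the mutant L3 list held one.

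On X, the region from 4567346 to 4567690 had a ChIP-seq pileup of 58.7 (percentile 83.7) and a 24 h pileup of 118.1 (percentile 97.5). Its wild-type pileup at 44 h was 120.7, with a mutant peak of 39 reads. It lay 63 bp from an L3 peak and 76 bp from a mutant 24 h peak. The highest 24 h pileup of the 695, 123.9, belonged to the region from 4635236 to 4635508 on 2L, at rank 197 of 29731. Its E93 summit lay 793 bp from the FAIRE-seq summit and its wild-type pileup at 44 h was 34.9 (percentile 23.3), with no mutant peak. This region lay 115 bp from an L3 peak and 110 bp from a mutant 24 h peak.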

How the data were processed

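The 7 peak lists were used as the authors deposited them. Per the submitters' processing notes, Bowtie2 2.2.8, Picard 2.2.4, bedtools 2.25.0 and MACS2 were used on dm3, and settings are not given in the sources used here. Each deposited list gives a summit pileup, which is a coverage signal the authors computed, a fold enrichment, which is their deposited ratio of that pileup to a local background (pseudocount 1), a −log10 p, and a score deposited by the authors, the −log10 q. The 10135847 control reads were deposited with a mapping score, on which nothing was filtered. Control reads reach 3579708 bp past the furthest peak on 3L and 4145853 bp past it on 2R, so reads and peaks appear to lie on different releases. Fold enrichment may thus rest on control reads of another position. The same may hold for −log10 p, −log10 q, the peak calls themselves and the background levels used here. Ranks are by pileup, which does not remove this from the choice of the regions or from their fates.

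The background level of a list is the most frequent value of (pileup + 1) / fold enrichment − 1. Depth was recovered from it, or from the step between pileups, assuming reads 125 bp long after extension in 120000000 bp of genome. Alternatives were judged against exact intervals of shares and order-statistic intervals of medians. Peaks sharing 1 bp or more counted as matched, in Python 3.11.15, numpy 2.4.6, pandas 2.3.3 and scipy 1.17.1, and the code was tested on simulated lists. Where an E93 peak met several peaks of a list, the highest pileup was taken.

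The regions and comparison groups were chosen with earlier results of these data known. The pileup classes at 40, 60 and 80 were set after seeing the data. Regions named are the 5 with the best worse percentile of ChIP-seq and 24 h pileup, the highest in each, the best of each fate, and those nearest the edge of the rule. Motifs and sequences were not computed because no genome of the build of the lists was used here.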

Additional observations from a re-analysis of the deposited data

How the results depend on the processing

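No paired analysis was possible because the lists pool all replicates, none of which can be taken out again. Over 15 settings, 78 values stayed within the interval of the value reported (counts within 1.5 times) and 40 did not. The cause was not tested. The settings on 24 h peaks free of others, the stretch of 3R and the mutant L3 list were chosen after seeing the data.

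With a −log10 q of at least 10 in all lists, 207 regions were left, 38.2% of pupal E93 peaks were missing in the mutant, 0.483% of the regions had a mutant L3 peak and the median length was 378 bp. With that threshold on the ChIP-seq and 24 h lists only, the values were 76 regions, 27.1% missing, 64.5% with a wild-type 44 h peak, 38.2% with a mutant 44 h peak, 51.0% of those open in wild type at 44 h with a mutant peak too, a median 24 h percentile of 46.6 and a median length of 342 bp. Where the shared stretch had to make up 50% of each peak, 41.2% had a wild-type 44 h peak, the median percentiles were 47.8 (ChIP-seq) and 60.6 (24 h), and the median length was 274 bp. With no L3 or mutant 24 h peak within 500 bp, there were 297 regions, 40.7% missing, 3.37% with a mutant L3 peak and a median 24 h percentile of 53.2. For summits at most 250 bp apart, 48.9% had a wild-type 44 h peak and 9.27% a mutant L3 peak, with a median ChIP-seq percentile of 40.5 and length of 234 bp. At equal list sizes (22786 peaks), 44.2% were missing, 33.7% had a mutant 44 h peak, 52.8% of those open in wild type at 44 h had a mutant peak too, and the median 24 h percentile was 47.9. On 2L only, there were 117 regions, 44.8% missing, 3.42% with a mutant L3 peak and median percentiles of 40.5 (ChIP-seq) and 64.4 (24 h). Ranked by −log10 p or by fold enrichment, the median ChIP-seq percentile was 30.4. Another setting scaled the wild-type 24 h pileup to the background level of the mutant 44 h list, with no 44 h pileup used. Among regions that so reached 1.5 times the lowest pileup of that list, 57.7% had a wild-type and 32.7% a mutant 44 h peak. Counting 24 h FAIRE-seq peaks, 58.8% had a wild-type and 37.1% a mutant 44 h peak, and 54.8% of the former had the latter. With only 24 h FAIRE-seq peaks free of L3 and mutant peaks, the median 24 h percentile was 53.7. Outside the low stretch of 3R, and without regions in the mutant L3 list, no value moved out of its interval.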

Other observations

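Among the 695 regions, the median distance from a summit to the nearest other was 20419 bp, and 261 regions (37.6%) had another within 10000 bp, against 38.8% of the pupal E93 peaks open in the mutant at 24 h. Linking summits within 10000 bp gave 113 groups of at least 2, of which 25 held 3 or more. The largest held 6 regions within 15.7 kb, from 21883064 to 21898728 on 3L, of which 4 had a wild-type and 4 a mutant peak at 44 h. Their 24 h pileups were all above percentile 71, while their ChIP-seq percentiles ran from 4.45 to 62.1. A group of 5 lay from 14319982 to 14331137 on 3R, with 3 wild-type and 2 mutant peaks at 44 h. On X, 4 regions from 4850986 to 4860292 had 2 wild-type and 0 mutant peaks at 44 h, and on 3L 4 regions from 4702933 to 4707861 had 1 and 0. On 2L, 4 regions from 8263711 to 8277181 all had a wild-type peak at 44 h and 1 had a mutant peak. On 3L, the group of 4 from 556182 to 565139 had 3 wild-type and 3 mutant peaks at 44 h, and the group of 4 from 16626140 to 16633482 had 1 and 2. The groups of 4 or more were chosen for their size after the values were seen, and regions of 1 group may share open DNA.

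Within the low stretch of 3R, 5 of 11 pupal E93 peaks had no mutant 24 h peak (45.5%), against 49.4% elsewhere. Of the 5, 4 had a wild-type and 2 a mutant peak at 44 h.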
